A study of Mus musculus with 8 samples.

Results

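The collagen genes of the mouse were followed through 4 populations of sorted newborn skin cells: Merkel and IFE cells of the paw and Merkel and IFE cells of the back. Members were all rows of the count tables whose symbol has the form Col, a number, a and a number (Col17a1, for example), which gave 44 genes of 24538. RNA was sequenced from Atoh1-GFP mice at postnatal day 0, a strain in which the Merkel cell factor Atoh1 carries green fluorescent protein, and every group came from this strain and age. Skin of the back and of the paw was digested with collagenase and then trypsin. Both cell types were sorted for EpCAM, the Merkel cells with GFP and without Sca1, and the IFE cells, whose abbreviation the labels do not spell out, with Sca1 and without GFP. Each group has 2 libraries, written below as library 1 and library 2, and the labels do not say whether they came from separate animals. The p-values therefore measure only the spread between these samples, which may be technical.

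Collagens are triple-helical proteins of the extracellular matrix. Fibrillar collagens form the load-bearing fibres of the dermis and are made chiefly by fibroblasts. Basement membrane collagens form the sheet beneath the epidermis and the anchoring fibrils below it. Transmembrane collagens span the cell membrane, and one of them, Col17a1, is a hemidesmosome component that fixes basal keratinocytes to the basement membrane. The fibril-associated collagens with interrupted triple helices (FACIT) sit on the surface of fibres, and beaded filament and short chain collagens build microfibrils and networks.

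Total counts ran from 11139306 to 26195076 per library. All 8 Merkel cell markers were higher and all 4 basal keratinocyte markers lower in Merkel than in IFE libraries at both sites, past the threshold given below. Of all genes tested, 4.28% were higher and 1.93% lower in paw, and 7.99% and 7.45% in back skin. None of the 4 differentiated keratinocyte markers passed at either site. Atoh1, 1 of the 8 Merkel markers, carries the GFP that the Merkel cells were sorted on, so its higher level follows from the sort. The paw Merkel libraries differed in keratinocyte markers. The 4 differentiated keratinocyte markers summed to 5140 CPM (read counts relative to the scaled library total) in library 1 and 387 in library 2. They summed to 1880 and 1020 in the back Merkel and 4470 to 10500 in the IFE libraries. The 4 basal markers summed to 2620 and 1190 in the paw Merkel and 20500 to 37500 in the IFE libraries. The part of these markers was not tested. Back IFE library 1 stood apart from the other libraries in 2 marker measures. Its 8 immune and Langerhans cell markers summed to 797 CPM against 0.738 to 135 elsewhere. Its level of the fibroblast product Postn was 1492 CPM against 1.57 to 248.9 elsewhere. Without this library, Col1a2 alone of the collagen calls in back skin was lost.

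The promoters of 4 members are shown because the results turn on these genes. Col17a1 is the collagen with the highest length-scaled level in most libraries. Col19a1 is the only member that passed the threshold given below as higher in Merkel cells at both sites. Col4a5 and Col4a6 are neighbours that are read in opposite directions from starts 1308 bases apart on the X chromosome. Each sequence holds the 195 bases from 250 to 56 before the RefSeq transcript start in build GRCm38.p6, 5′ to 3′ on the gene's own strand, and capitals mark matches to the motifs searched. RefSeq windows were found for 35 of the 44 genes. They lie at chr19:47692098-47692292 on the minus strand for Col17a1, chr1:24587493-24587687 on the minus strand for Col19a1, chrX:141475169-141475363 on the plus strand for Col4a5 and chrX:141474132-141474326 on the minus strand for Col4a6.
Col17a1: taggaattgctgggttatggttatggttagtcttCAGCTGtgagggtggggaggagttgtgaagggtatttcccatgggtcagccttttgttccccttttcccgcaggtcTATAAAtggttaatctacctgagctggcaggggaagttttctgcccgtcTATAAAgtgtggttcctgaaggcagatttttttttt
Col19a1: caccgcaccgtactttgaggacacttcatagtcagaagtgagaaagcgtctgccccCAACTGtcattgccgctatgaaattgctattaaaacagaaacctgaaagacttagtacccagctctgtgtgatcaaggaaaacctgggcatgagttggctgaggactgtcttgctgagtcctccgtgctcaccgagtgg
Col4a5: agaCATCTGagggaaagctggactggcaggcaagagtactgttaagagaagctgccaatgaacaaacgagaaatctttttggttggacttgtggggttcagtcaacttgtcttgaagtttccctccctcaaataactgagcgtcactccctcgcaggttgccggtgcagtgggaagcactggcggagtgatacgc
Col4a6: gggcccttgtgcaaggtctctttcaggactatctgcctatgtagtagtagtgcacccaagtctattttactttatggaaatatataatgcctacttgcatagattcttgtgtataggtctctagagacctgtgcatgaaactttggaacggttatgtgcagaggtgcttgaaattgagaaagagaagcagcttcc
Motifs were searched on both strands. CAGNTG, the E-box form that basic helix-loop-helix factors can bind, was in 37.6% of all 32851 windows of the same length. The TATA box form TATAAA was in 8.95% of them, the GC box form GGGCGG in 23.8% and the AP-1 form TGANTCA in 5.37%. The Col17a1 window held 1 CAGNTG match, 216 bases before the start, and 2 TATAAA matches, 140 and 91 bases before it. The Col19a1 and Col4a5 windows held 1 CAGNTG match each, 194 and 247 bases before the start. None of the 4 motifs was in the Col4a6 window, which says only that these letters are not in these bases. Their G and C content was 46.2% (Col17a1), 49.7% (Col19a1), 50.8% (Col4a5) and 42.1% (Col4a6), against a median of 51.3% over all windows.

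Collagen RNA was a smaller part of Merkel than of IFE libraries at both sites. All 44 genes together took 0.118% and 0.0933% of the counts of the paw Merkel libraries and 0.0949% and 0.0886% of those of the back Merkel libraries. The paw IFE libraries gave 0.526% and 0.449%, and the back IFE libraries 0.414% and 0.433%. The groups of the 2 cell types did not overlap. In bulk RNA, fewer cells that make a collagen and less of its RNA per cell cannot be told apart.

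Levels of different genes were compared on the deposited FPKM scale, which divides by transcript length. Col17a1 ranked first among the collagens in 7 of the 8 libraries. It made up 68% and 67.4% of the summed collagen FPKM in the paw IFE libraries and 64.9% and 63.5% in the back IFE libraries, where Col7a1 and Col12a1 came next. Its share was 51.6% and 38.4% in the paw Merkel libraries and 19.2% and 35.6% in the back Merkel libraries. In the latter, Col19a1 held 21.2% and 20.9% and Col1a2 held 26.2% and 9.52% of the sum. Col1a2 ranked above Col17a1 in back Merkel library 1.

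**Figure D1:**
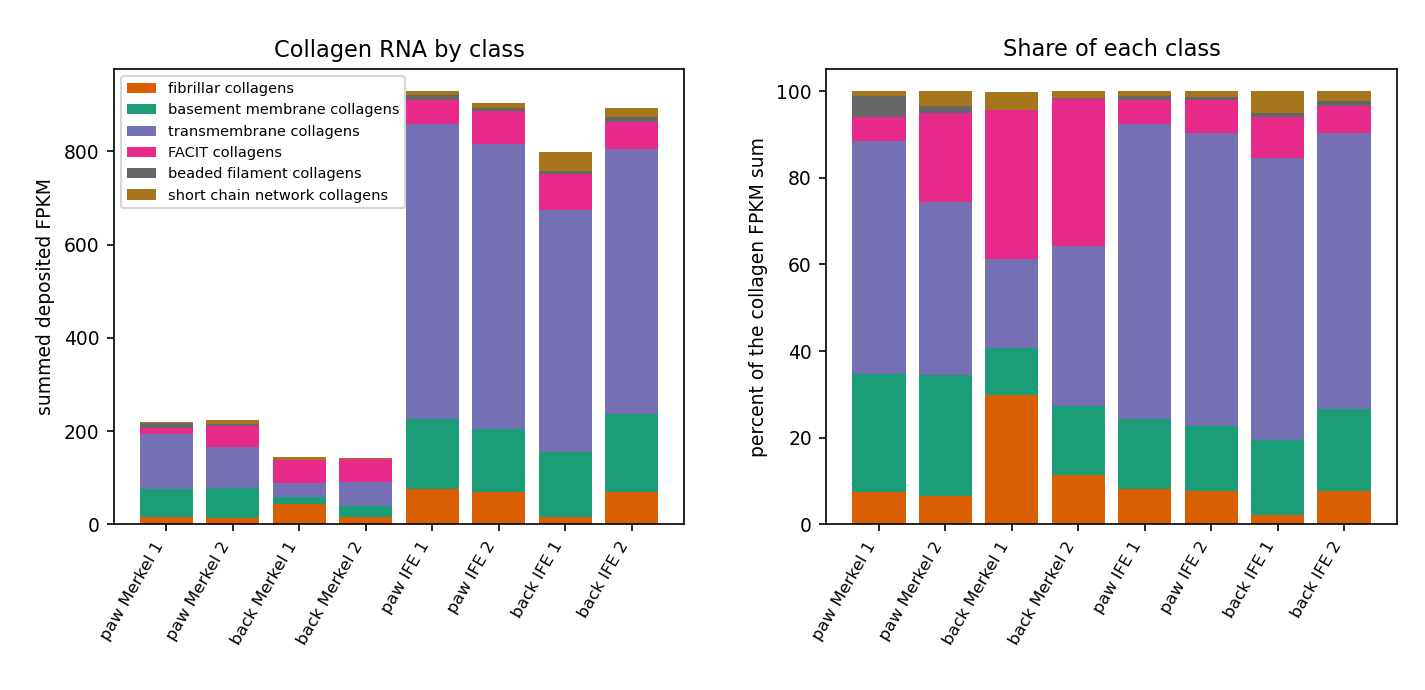
Summed deposited FPKM of the collagen classes in each library (left) and each class as a percentage of the collagen sum (right), 1 bar per library. The IFE bars reach 798 to 930 FPKM and the Merkel bars 142 to 223, and FACIT collagens take 34.4% and 33.9% of the sum in the back Merkel libraries.

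Of the 44 genes, 34 passed the filter on low counts and were tested, and 10 did not (Col6a4, Col6a5, Col8a2, Col9a1, Col11a1, Col13a1, Col22a1, Col24a1, Col26a1 and Col28a1). Adjusted p-values come from the quasi-likelihood test of edgeR, adjusted by Benjamini-Hochberg over all 15151 genes tested, and the threshold was 0.05. In paw, 7 collagens were lower and 1 was higher in Merkel than in IFE cells, 23.5% of those tested, where 6.21% of all genes passed (4.28% higher, 1.93% lower). In back skin 12 were lower and 2 higher, 41.2% of those tested, where 15.4% of all genes passed (7.99% higher, 7.45% lower). The median log2 fold change over the tested collagens was -1.16 in paw and -2.92 in back skin, beside -0.04 and -0.06 over all genes tested. Of the tested collagens, 7 were at 0 counts throughout 1 of the back groups, and with those at their bounds the back median was -0.82. All 8 genes called in paw were called in back skin with the same direction, which is 100% of the paw calls and 57.1% of the back calls. The 2 comparisons share no library, but both come from 1 fit with a common estimate of the spread. They are therefore not independent tests. The library ranges of Merkel and IFE cells did not overlap for 16 tested collagens that were lower and 7 that were higher in paw Merkel cells, where 28.7% and 24.8% of all genes did so, and for 17 and 9 in back skin, where the shares were 32.8% and 29.1%.

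**Figure D2:**
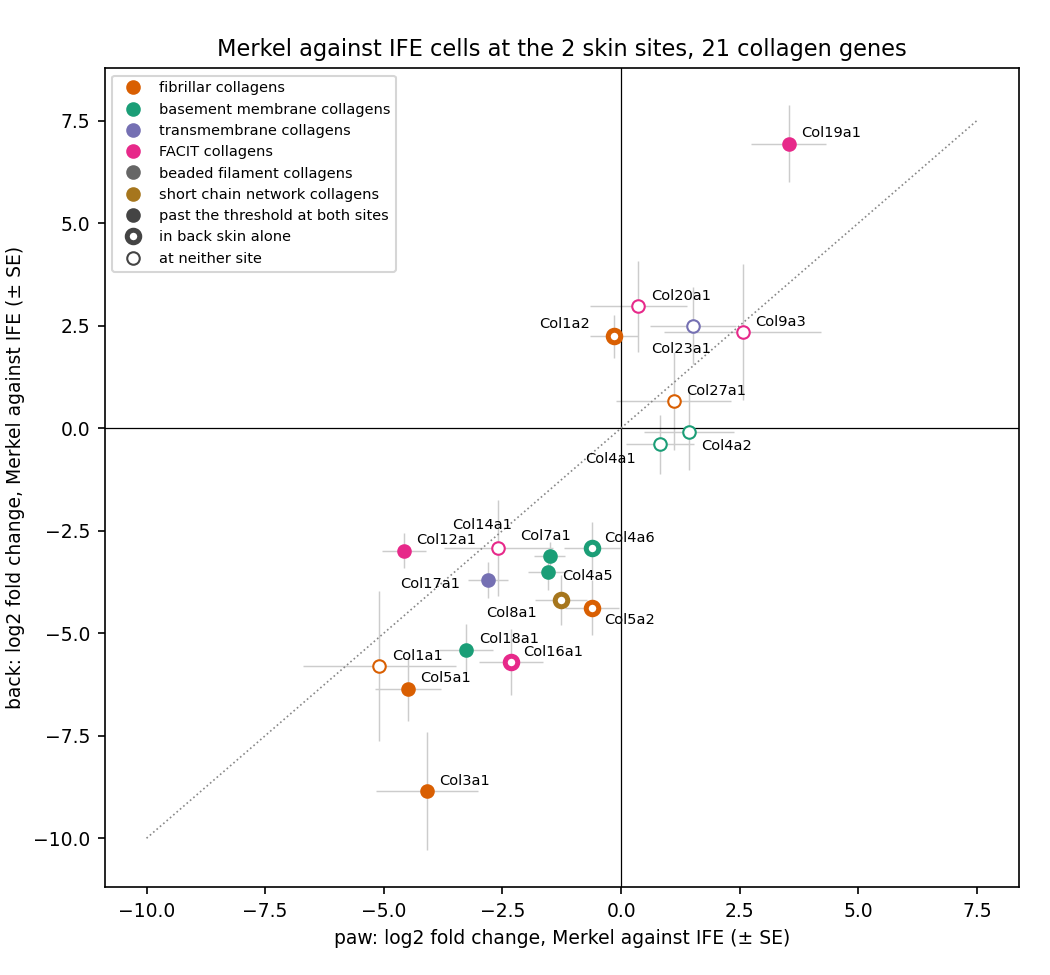
Log2 fold change of Merkel against IFE cells in paw (horizontal axis) and back skin (vertical axis) for 21 collagen genes, with bars of 1 standard error and filled points for genes past the threshold at both sites. Col19a1 is the only filled point above 0, and Col6a1, at 0 counts in the back Merkel libraries, is left out.

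Among fibrillar collagens, 2 of the 9 tested (of 11) were lower in paw Merkel cells and 3 in back Merkel cells, and 1 was higher in back Merkel cells. These calls were 22.2% of those tested in paw and 44.4% in back skin, where 6.21% and 15.4% of all genes passed. Col3a1, the type III chain of young dermal fibres, read 13.4 and 6.36 CPM in the paw Merkel libraries, 152.3 and 185.1 in the paw IFE libraries, 0.228 and 0.195 in the back Merkel libraries and 8.09 and 195.4 in the back IFE libraries. The Merkel libraries were below the IFE libraries of the same site, and back IFE library 1 lay far below the other IFE libraries. The log2 difference was -4.09 (SE 1.07, adjusted p = 0.0466 by edgeR) in paw and -8.85 (SE 1.43, adjusted p = 0.00194) in back skin. The back value was -9.80 without back IFE library 1 and -5.20 without back IFE library 2 and stayed past the threshold. The paw value ran from -4.75 (paw Merkel library 1 left out) to -3.66 without single libraries, and the paw call was lost without paw Merkel library 2.

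Col5a1, a type V chain that starts fibre assembly, read 7.76 and 4.89 CPM in the paw Merkel libraries and 178.1 and 109.4 in the paw IFE libraries. In back skin it read 0.685 and 0.977 in the Merkel and 29 and 106.6 in the IFE libraries. The groups were apart at both sites, and the back difference of -6.35 (SE 0.78, adjusted p = 0.000349 by edgeR) stood beside -4.50 (SE 0.69, adjusted p = 0.00275) in paw. The back value was -7.01 without back IFE library 1 and -5.13 without back IFE library 2. Its partner chain Col5a2 read 34 and 30 CPM in the paw Merkel libraries, 56.4 and 41.8 in the paw IFE libraries, 3.04 and 1.27 in the back Merkel libraries and 40.2 and 50.1 in the back IFE libraries. The back Merkel libraries alone were low. The difference was -4.37 (SE 0.66, adjusted p = 0.00133) in back skin and -0.62 (adjusted p = 0.591) in paw by edgeR, so Col5a1 alone of this pair of type V chains passed in paw. The back value of Col5a2 ran from -5.17 (back Merkel library 1 left out) to -3.89 without single libraries. Col3a1 and Col5a2 lie 24614 bases apart on chromosome 1.

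The type I chains were at unlike levels in Merkel cells. Col1a2 read 32.1 and 23.8 CPM in the paw Merkel libraries, 36.1 and 25.9 in the paw IFE libraries, 164.6 and 74 in the back Merkel libraries and 21.7 and 28.9 in the back IFE libraries. Back Merkel cells were the high group, and the other 3 groups overlapped. The log2 difference in back skin was 2.24 (SE 0.53, adjusted p = 0.0155 by edgeR), and the call was lost without back Merkel library 1 or without back IFE library 1 (adjusted p up to 0.156). The value without back Merkel library 1 was 1.53. Col1a1, whose chain usually joins that of Col1a2 in type I collagen, read 0.719 and 0.0922 CPM in the paw Merkel libraries, 13.4 and 15.8 in the paw IFE libraries, 0 and 0.0977 in the back Merkel libraries and 2.28 and 3.47 in the back IFE libraries. It was near 0 in every Merkel library, and it missed the threshold at both sites (adjusted p = 0.0938 in paw and 0.0545 in back skin by edgeR). On the FPKM scale Col1a2 stood 2.41- to 7.84-fold above Col1a1 in the IFE libraries and 52.3-fold above it in paw Merkel library 1, where Col1a1 had 15 counts. In the other Merkel libraries Col1a1 had 0 or 1 counts, and no ratio is given. Col1a2 lies on chromosome 6 (4504814 to 4541544, plus strand), and none of its exonic bases is shared with another gene.

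Col27a1, a fibrillar collagen best known from cartilage, read 1.77 and 25.9 CPM in the paw Merkel libraries and 4.02 to 8.21 in the other 6 libraries. Its spread within paw Merkel cells covered all other values, and neither site passed (adjusted p = 0.66 in paw and 0.757 in back skin by edgeR). The remaining 3 tested fibrillar members, Col2a1, Col5a3 and Col11a2, were between 0 and 12.4 CPM in every library.

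Basement membrane collagens all passed the filter, and 3 of the 9 were lower in paw Merkel cells, 4 in back Merkel cells and none higher. The lower genes were 33.3% of the class in paw and 44.4% in back skin, where 1.93% and 7.45% of all genes tested were lower. Col7a1, which forms the anchoring fibrils, read 146.7 and 203.5 CPM in the paw Merkel libraries, 519.1 and 472.9 in the paw IFE libraries, 58.4 and 65.8 in the back Merkel libraries and 453.2 and 633.8 in the back IFE libraries. Merkel libraries lay below IFE libraries throughout, those of the back lowest. The difference was -1.50 (SE 0.33, adjusted p = 0.0192 by edgeR) in paw and -3.13 (SE 0.35, adjusted p = 0.000173) in back skin, and the paw call was lost without either paw IFE library (adjusted p up to 0.0923).

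Col18a1, the source of endostatin, read 15.2 and 11.5 CPM in the paw Merkel libraries, 157.6 and 99.7 in the paw IFE libraries, 2.51 and 0.879 in the back Merkel libraries and 81.6 and 64.3 in the back IFE libraries. All Merkel libraries were below all IFE libraries. It was 9.6-fold lower in paw Merkel cells (log2 -3.26, SE 0.57, adjusted p = 0.00551 by edgeR) and 42.3-fold lower in back Merkel cells (log2 -5.40, SE 0.64, adjusted p = 0.000266). Without single libraries the back value ran from -6.39 (back Merkel library 1 left out) to -4.86.

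Of the type IV chains, Col4a5 and Col4a6 are the pair found in the epidermal basement membrane beside the ubiquitous Col4a1 and Col4a2. Col4a5 read 81.3 and 45.7 CPM in the paw Merkel libraries, 191.5 and 179.7 in the paw IFE libraries, 13.4 and 15.5 in the back Merkel libraries and 126.6 and 199.8 in the back IFE libraries. Its difference was -1.55 (SE 0.41, adjusted p = 0.0486 by edgeR) in paw and -3.50 (SE 0.44, adjusted p = 0.000416) in back skin. The paw call was lost without paw Merkel library 2, either paw IFE library or either back Merkel library (adjusted p up to 0.207). Col4a6 read 58.2 and 63.6 CPM in the paw Merkel libraries, 118.9 and 67.1 in the paw IFE libraries, 5.10 and 13.9 in the back Merkel libraries and 42.2 and 100.9 in the back IFE libraries. Both X-linked neighbours were low in back Merkel cells, and Col4a6 passed there (-2.92, SE 0.63, adjusted p = 0.00969 by edgeR) but not in paw (-0.61, adjusted p = 0.607). The back call of Col4a6 was lost without back Merkel library 1 or back IFE library 2 (adjusted p up to 0.055). Its value was -3.81 when back Merkel library 2 was left out and -2.16 when back IFE library 2 was.

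Col4a1 and Col4a2 did not pass at either site. Col4a1 read 36.1 and 28.2 CPM in the paw Merkel libraries, 24 and 12.4 in the paw IFE libraries, 10.7 and 33.7 in the back Merkel libraries and 39.6 and 18.6 in the back IFE libraries. Col4a2 read 35.9 and 15 CPM in the paw Merkel libraries, 14.1 and 4.79 in the paw IFE libraries, 16.9 and 10.4 in the back Merkel libraries and 23.8 and 5.19 in the back IFE libraries. In paw both genes were above every IFE library in every Merkel library, the opposite order to Col4a5, and in back skin the cell types overlapped. The adjusted p-values by edgeR were 0.573 and 0.433 in paw and 0.758 and 0.967 in back skin. With log2 differences of 0.82 (SE 0.73) and 1.43 (SE 0.95) in paw and -0.39 (SE 0.72) and -0.09 (SE 0.93) in back skin, differences of the size seen for Col4a5 in paw could not be resolved. Col4a1 and Col4a2 overlap by 22 bases at their starts on chromosome 8, and the strand setting of the counting is not given in the sources used here. The remaining basement membrane genes, Col4a3, Col4a4 and Col15a1, were between 0 and 9.05 CPM.

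**Figure D3:**
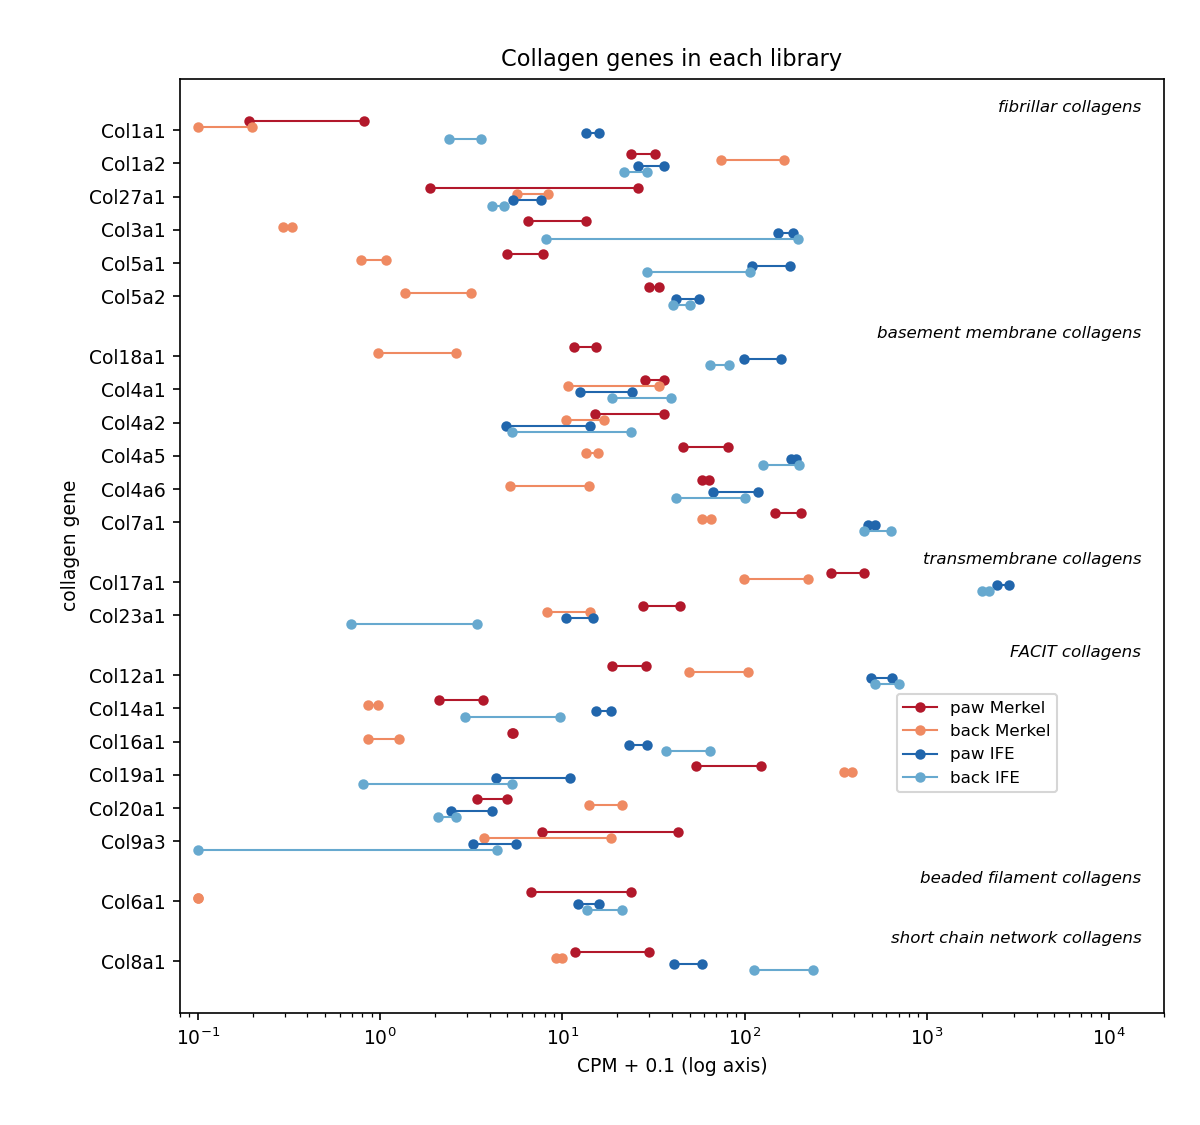
CPM plus 0.1 on a log axis for the 22 named collagen genes, 1 row per gene and 1 point per library, with a line joining the 2 libraries of a group. Col17a1 lies at 2018 to 2829 CPM in the IFE libraries against 99.1 to 449.7 in the Merkel libraries, and Col19a1 shows the opposite order.

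Of the transmembrane collagens, 3 of 4 were tested and 1 passed at both sites. This 1 gene is 33.3% of those tested, where 6.21% of all genes passed in paw and 15.4% in back skin. Col17a1 (chromosome 19, 47646344 to 47692094, minus strand) read 449.7 and 299.5 CPM in the paw Merkel libraries, 2829 and 2412 in the paw IFE libraries, 99.1 and 223.1 in the back Merkel libraries and 2018 and 2183 in the back IFE libraries. It was 6.99-fold lower in paw Merkel cells (log2 -2.81, SE 0.42, adjusted p = 0.00224 by edgeR) and 13-fold lower in back Merkel cells (log2 -3.70, SE 0.44, adjusted p = 0.000267). Without single libraries the back value ran from -4.41 (back Merkel library 2 left out) to -3.26. Col23a1, another membrane-spanning collagen, read 27.6 and 44 CPM in the paw Merkel libraries, 14.6 and 10.4 in the paw IFE libraries, 14.2 and 8.11 in the back Merkel libraries and 0.597 and 3.32 in the back IFE libraries. Its Merkel libraries were above the IFE libraries of the same site, but neither difference passed (1.51, SE 0.90, adjusted p = 0.372 in paw and 2.49, SE 0.94, adjusted p = 0.0958 in back skin, by edgeR). Col25a1, a transmembrane collagen known from neurons, was at 9.89 and 7.23 CPM in the back Merkel libraries and 0.163 to 2.12 in the other 6, and did not pass at either site.

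Of the 9 FACIT collagens, 7 were tested. In paw Merkel cells 1 was higher and 1 lower, and in back Merkel cells 1 was higher and 2 lower. Their shares of 28.6% in paw and 42.9% in back skin stood beside 6.21% and 15.4% of all genes tested. Col19a1 (chromosome 1, 24261890 to 24587472, minus strand) read 53.9 and 122.4 CPM in the paw Merkel libraries, 10.9 and 4.24 in the paw IFE libraries, 388.8 and 350.4 in the back Merkel libraries and 0.706 and 5.23 in the back IFE libraries. Every Merkel library was above every IFE library, and back Merkel cells were highest. The log2 difference was 3.54 (SE 0.79, adjusted p = 0.0231 by edgeR) in paw and 6.94 (SE 0.93, adjusted p = 0.00061) in back skin. The paw call was lost without paw Merkel library 2 or paw IFE library 2 (adjusted p up to 0.074). The paw value was 2.83 when paw Merkel library 2 was left out and 4.38 when paw IFE library 1 was, and the back value was 6.14 without back IFE library 1 and 9.02 without back IFE library 2.

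Col12a1, which decorates type I fibres, went the other way, with 28.8 and 18.5 CPM in the paw Merkel libraries, 493.7 and 641.3 in the paw IFE libraries, 49.2 and 104.2 in the back Merkel libraries and 699.5 and 518 in the back IFE libraries. Its difference of -4.58 in paw (SE 0.47, adjusted p = 0.00015 by edgeR) had the smallest p of any collagen there. In back skin the difference was -2.99 (SE 0.43, adjusted p = 0.00101 by edgeR). It ran there from -3.63 (back Merkel library 2 left out) to -2.57 without single libraries. Col16a1 read 5.18 and 5.26 CPM in the paw Merkel libraries, 29.1 and 23.2 in the paw IFE libraries, 0.761 and 1.17 in the back Merkel libraries and 64.8 and 36.8 in the back IFE libraries. It passed in back skin (-5.71, SE 0.80, adjusted p = 0.000817 by edgeR) and missed the threshold in paw (-2.32, adjusted p = 0.0703), although the paw groups did not overlap.

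Col14a1, another fibre-bound collagen, read 2.01 and 3.60 CPM in the paw Merkel libraries and 15.2 and 18.5 in the paw IFE libraries. In back skin it read 0.761 and 0.879 in the Merkel and 2.82 and 9.62 in the IFE libraries. The cell types did not overlap at either site, but neither difference passed (adjusted p = 0.222 in paw and 0.118 in back skin by edgeR). Col20a1 was at 21.2 and 13.9 CPM in the back Merkel libraries and 1.99 to 4.89 in the other 6 (adjusted p = 0.0924 in back skin by edgeR). Col9a3, a chain of the cartilage collagen IX, read 7.67 and 43.2 CPM in the paw Merkel libraries, 3.14 and 5.48 in the paw IFE libraries, 18.4 and 3.62 in the back Merkel libraries and 0 and 4.31 in the back IFE libraries, and passed at neither site. Libraries of 1 group differed widely for Col9a3. The 9 cartilage and bone markers summed to 24.6 CPM in paw Merkel library 2, the highest of the 8 libraries, and 8.72 in paw Merkel library 1. They summed to 18.1 and 14.9 in the paw IFE libraries, 1.6 and 2.05 in the back Merkel and 2.23 and 13.4 in the back IFE libraries. Cnmd alone read 14.8 CPM in paw Merkel library 2. Comp was higher and Acan and Hapln1 lower in both paw Merkel libraries than in the paw IFE libraries, without a call. The part of these markers in the Col9a3 and Col27a1 values was not tested.

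In the beaded filament class, Col6a1 read 23.9 and 6.64 CPM in the paw Merkel libraries, 15.8 and 12.1 in the paw IFE libraries and 13.6 and 21.1 in the back IFE libraries, and had 0 counts in both back Merkel libraries. Set against 3 counts, a floor taken over the group, it was at least 135-fold lower in back Merkel than in back IFE cells (adjusted p = 0.00203 by edgeR), and the paw difference was 0.13 (adjusted p = 0.959). Its partner chains Col6a2 and Col6a3 were at 0 to 0.0977 CPM in the back Merkel libraries and at 0.109 to 6.14 in the back IFE libraries, and did not pass. Of the short chain collagens, Col8a1 read 11.6 and 29.8 CPM in the paw Merkel libraries, 40.8 and 58.1 in the paw IFE libraries, 9.89 and 9.18 in the back Merkel libraries and 236.6 and 112.2 in the back IFE libraries. It passed in back skin (-4.19, SE 0.61, adjusted p = 0.00106 by edgeR) and not in paw (-1.26, adjusted p = 0.216). The back value was -3.56 without back IFE library 1. The remaining tested members, Col6a6, Col9a2 and Col10a1, were between 0 and 16.9 CPM and did not pass at either site, and the 10 genes removed by the filter were between 0 and 1.6 CPM in every library.

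Between the sites, 2 of the 34 tested collagens differed in Merkel cells (5.88%, with 0.185% of all genes past the threshold, 0.178% higher in paw and 0.0066% lower), both higher in paw. Col5a2 was 14.7-fold higher in paw Merkel cells (log2 3.88, SE 0.65, adjusted p = 0.0487 by edgeR), and Col6a1 at least 119-fold higher against the floor (adjusted p = 0.0473). Each call was lost without either back Merkel library (adjusted p up to 0.206 and 0.169), and the number of calls ran from 0 (only the groups compared, or FPKM) to 12 (no filter) over the processing alternatives. The Col5a2 value ran from 3.39 to 4.68 (back Merkel library 1 left out) without single libraries. Col18a1 and Col4a5 came next (log2 2.96 and 2.14, adjusted p = 0.0865 for each by edgeR). The 4 basal keratinocyte markers were also above every back Merkel library in both paw Merkel libraries, by log2 0.87 (Trp63), 1.00 (Krt5), 1.18 (Krt14) and 1.34 (Krt15). Of all 15151 genes tested, 2760 were higher in paw without overlap. None of the 4 markers passed (adjusted p from 0.31 to 0.475 by edgeR), and their part in the differences between sites was not tested. Col19a1 went the other way, with -2.07 (SE 0.74, adjusted p = 0.368).

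No collagen differed between paw and back IFE cells by edgeR, where 0% of all genes passed. At an unadjusted p under 0.05 there were 643 of the 15151 genes tested and 3 of the 34 tested collagens (Col5a3, Col8a1 and Col23a1). DESeq2 called 82 genes. The difference of the Merkel against IFE contrast between the sites gave no call either by edgeR, again 0% of all genes. At an unadjusted p under 0.05 it gave 1365 of the 15151 genes and 14 of the 34 collagens tested, and DESeq2 called 274 genes. The smallest adjusted p of a collagen in this test was 0.165 (Col6a1), followed by 0.256 (Col5a2), and for Col19a1 it was 0.391. The 6 collagens called in back skin alone (Col1a2, Col4a6, Col5a2, Col6a1, Col8a1 and Col16a1) are therefore not shown to differ from paw in their response.

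Dermal fibroblasts make most fibrillar collagen, so their other products are given beside these values. A list of 18 fibroblast genes without collagens summed to 255 and 242 CPM in the paw Merkel libraries, 673 and 660 in the paw IFE libraries, 163 and 201 in the back Merkel libraries and 2000 and 792 in the back IFE libraries. Between 6 and 11 of the 18 reached 1 CPM in a library, and Twist1 and Twist2 were at 0 in all 8. The defining genes were low: Pdgfra ran from 0 to 2.93 CPM, Lum from 0 to 1.72 and Dpt from 0 to 2.2. Dcn was the exception, with 86.1 and 55.5 CPM in the paw Merkel libraries, 229.6 and 163.6 in the paw IFE libraries, 5.10 and 3.62 in the back Merkel libraries and 60.6 and 181 in the back IFE libraries. Like Col5a2, Dcn was higher in paw than in back Merkel cells (log2 4.02, adjusted p = 0.0336 by edgeR). It was the only 1 of the 12 tested fibroblast genes to pass there, 8.33% beside 0.185% of all genes. The list was split, with 4 higher in paw without overlap, Dcn among them, and 3 lower, Postn among them (log2 -2.20). Over all 15151 genes tested, 2760 were higher and 2601 lower without overlap.

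**Figure D4:**
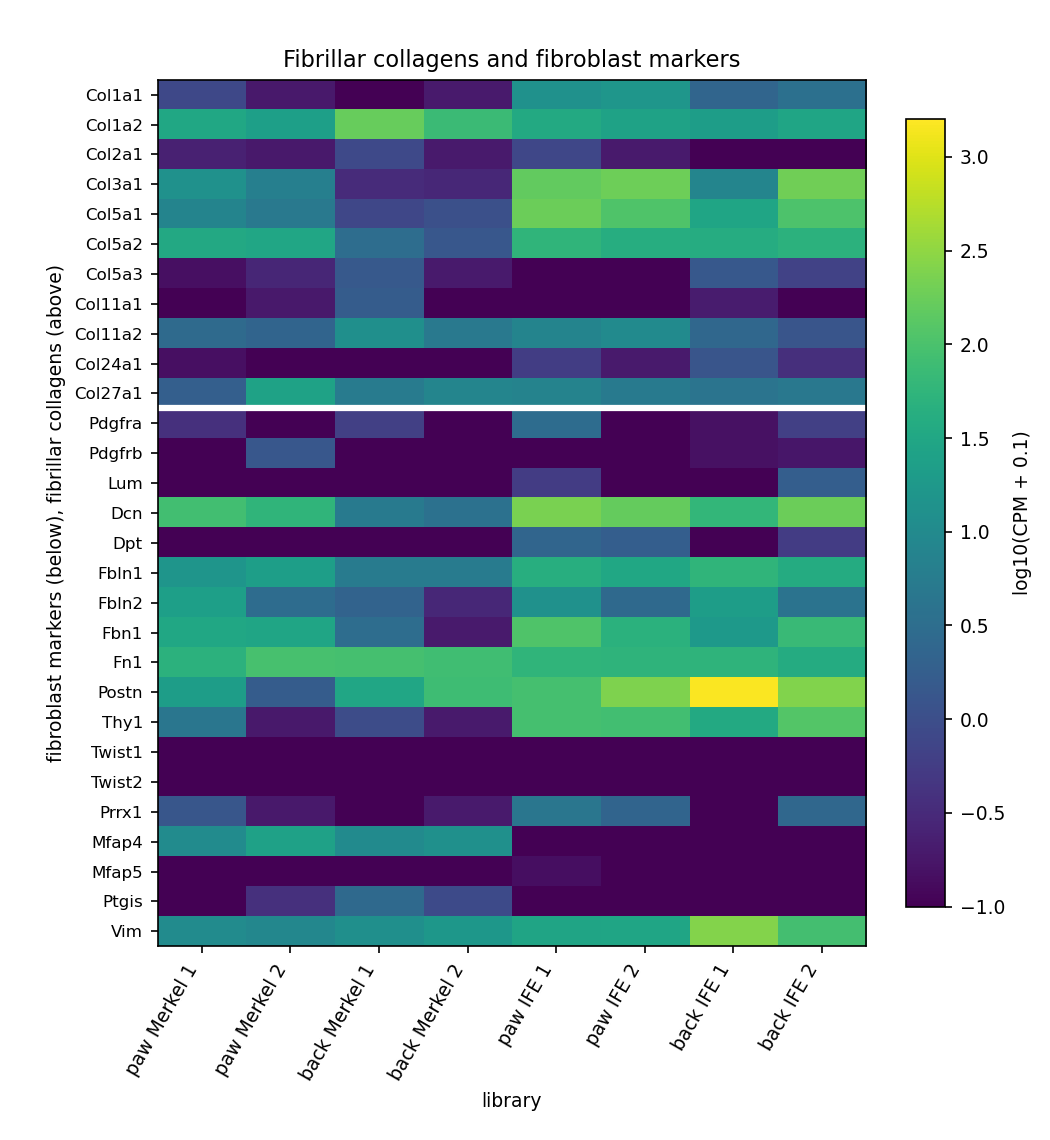
Heat map of log10(CPM + 0.1) for the 11 fibrillar collagens (above the white line) and 18 fibroblast genes (below it) in the 8 libraries, Merkel libraries on the left. Col3a1, Col5a1, Dcn and Thy1 are brighter in most IFE columns, Col1a2 is brightest in the back Merkel columns, and Twist1 and Twist2 have the darkest colour throughout.

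By edgeR, 1 of the 12 tested fibroblast genes was lower (Thy1) and 1 higher (Mfap4) in paw Merkel cells, and 6 were lower (Dcn, Fbln1, Fbn1, Postn, Thy1 and Vim) and 1 higher (Mfap4) in back Merkel cells. These are 16.7% of the tested list in paw and 58.3% in back skin, where 6.21% and 15.4% of all genes passed. The fibrillar collagens summed to 92.8 and 93.5 CPM in the paw Merkel libraries, 453 and 394 in the paw IFE libraries, 190 and 89.8 in the back Merkel libraries and 110 and 391 in the back IFE libraries. Back IFE library 1 had the highest fibroblast list sum, mostly from Postn, and the lowest fibrillar sum of the IFE libraries. Without Postn and Vim the list summed to 244 CPM there and 454 in back IFE library 2, and in Merkel libraries to 105 to 231. The part of fibroblast RNA in the collagen differences was not tested.

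Genes that make, process, bind or degrade collagens were called in back skin at these shares of each tested list, beside 15.4% of all genes tested: 9.52% for synthesis and secretion, 16.7% for processing, 22.2% for receptors and 22.2% for degradation. None passed in paw, where 6.21% of all genes did, so these counts do not set the lists apart. The interaction test called 0% of all genes, so its lack of calls in these lists carries no information. Of 21 genes for collagen synthesis and secretion, none passed in paw, and in back Merkel cells 2 were lower by edgeR: Serpinh1, the collagen chaperone (-3.93, adjusted p = 0.00152), and P3h2, a prolyl hydroxylase (-2.44, adjusted p = 0.0256). Serpinh1 read 49.6 and 26.4 CPM in the paw Merkel libraries, 65.9 and 46.8 in the paw IFE libraries, 3.2 and 6.74 in the back Merkel libraries and 67.4 and 83.9 in the back IFE libraries. Of 12 tested genes for processing and cross-linking, none passed in paw and 2 were lower in back Merkel cells, the procollagen proteases Bmp1 (-2.38, adjusted p = 0.0251 by edgeR) and Adamts14 (-4.94, adjusted p = 0.0259). Of 9 receptors none passed in paw, and in back Merkel cells Itga1 was higher (5.42, adjusted p = 0.0442 by edgeR) and Itga2 lower (-3.91, adjusted p = 0.00365), both of them alpha chains of collagen-binding integrins. Of 9 tested genes for degradation none passed in paw, and Timp3 (-1.85, adjusted p = 0.00789 by edgeR) and Mmp14 (-2.22, adjusted p = 0.0112) were lower in back Merkel cells.

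Some partners of Col17a1 and Col7a1 at the epidermal base were called at each site, while 8 in paw and 7 in back skin were not. Of 14 hemidesmosome and basement membrane genes, 6 were lower in paw Merkel cells and 7 in back Merkel cells, and none was higher. The lower genes are 42.9% of the list in paw and 50% in back skin, where 1.93% and 7.45% of all genes tested were lower. In paw they included Itgb4, the hemidesmosome integrin chain (-2.82, adjusted p = 0.00145 by edgeR), and the proteoglycan Hspg2 (-2.82, adjusted p = 0.00965). In back skin the smallest adjusted p-values were those of the laminin chain Lama3 (-3.33, adjusted p = 0.000153 by edgeR), Itgb4 (-3.45, adjusted p = 0.000269) and its partner chain Itga6 (-2.30, adjusted p = 0.000928). The basal keratinocyte markers, which were lower at both sites as well, moved with Col17a1, Col7a1 and the called genes of this list. Krt14 read 106.5 to 423.5 CPM in the Merkel and 2978 to 6035 in the IFE libraries. The part of the basal keratinocyte markers was not tested.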

How the data were processed

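RNA was measured in 8 libraries, 2 per group. The authors deposited gene counts, whole numbers over 24538 rows, and deposited FPKM values, which they had scaled by length and depth. Per the submitters' processing notes, build mm10 and the tools TopHat2 2.0.13, Cufflinks 2.2.1, featureCounts (Subread 1.4.6) and DESeq2 1.6.3 are listed. The annotation and strand setting are not given in the sources used here.

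The count tables were fitted in R 4.3.3 (edgeR 4.0.16, limma 3.58.1). Low counts were removed by filterByExpr, which kept 15151 genes, and TMM scaling was used. A single fit to the 8 libraries, with 1 mean for each group, left 4 residual degrees of freedom. Each of the 5 comparisons (Merkel against IFE at each site, the sites within each cell type, and the interaction) was tested with glmQLFit and glmQLFTest and adjusted by Benjamini-Hochberg over all genes tested, threshold 0.05. Fold changes are log2, with the SE taken as the size of the log2 value over the square root of F. Bounds against 3 counts cover counting error only, since amplified reads are not independent molecules.

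Members named with values in every library passed the threshold in any comparison or had a mean of at least 10 CPM in any group, 22 of 44. For Col20a1 and Col27a1 some of the libraries are given as a range. The others are given by range, and Col25a1 was named with its values after they were seen. From other lists, up to 3 genes per direction with the smallest adjusted p were named, apart from the markers and 1 gene that is not reported here. The members and lists were chosen with earlier results of these data known. All 44 positions are from GENCODE vM21 (GRCm38), and no member shares more than 20% of its exonic bases with another gene. The scripts were tested on simulated data. Alternatives were other scaling, filters and tools (DESeq2 1.42.0, limma-trend), fits on only the groups compared, a replicate block, each library left out, and limma on log2(FPKM + 0.1) and log2(FPKM + 1).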

Additional observations from a re-analysis of the deposited data

How the results depend on the processing

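Of 408 alternative values for the 24 pairs of collagen gene and comparison past the threshold, 367 stayed past it, 41 did not and 0 changed sign. In paw, the 1 collagen higher in Merkel cells went to 0 on log2(FPKM + 0.1) and log2(FPKM + 1) and ran from 0 to 1 without single libraries, and the 7 lower went to 4 on log2(FPKM + 0.1). In back skin, the 2 higher became 6 with DESeq2 and 1 on log2(FPKM + 0.1), and 1 to 4 without single libraries. Between Merkel sites, the 2 higher became 1 with RLE scaling, 9 without a filter, 9 with DESeq2, 1 with limma-trend, 0 with only the groups compared, 0 on either FPKM scale and 0 to 7 without single libraries, and the 0 lower became 3 without a filter and 2 with DESeq2. Between IFE sites, the 0 higher ran from 0 to 1, the 1 without back IFE library 2. In the interaction, the 0 higher became 4 without a filter, 5 with DESeq2 and 0 to 1 without single libraries, and the 0 lower became 1 without a filter, 1 with DESeq2 and 0 to 1 without single libraries, the 1 without back IFE library 2. The cause of these shifts was not tested.

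Over all genes, the paw count of 941 became 1920 without a filter, 2202 with DESeq2 and 537 with only the groups compared, and ran from 561 (without paw IFE library 2) to 2369 (without paw Merkel library 1). The back count of 2338 became 3963 with DESeq2, 1307 when back Merkel library 2 was left out and 1555 when back IFE library 1 was. The 28 genes between Merkel sites became 452 without a filter, 515 with DESeq2, 5 with only the groups compared, 3 and 12 on FPKM, and 1 (without either back Merkel library) to 177 (without paw Merkel library 1). The 0 between IFE sites became 120 without a filter, 82 with DESeq2 and up to 67 without back IFE library 2, and the 0 of the interaction 305, 274 and up to 41 without that library.

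The labels do not say whether libraries with the same number share more than that number. Their deviations from the group means correlated at -0.0427 to 0.0845 over all genes. With 2 libraries a group, such values cannot decide it. With the replicate block the collagen calls were 8 in paw, 14 in back skin and 3 between Merkel sites, where Col18a1 was added. Where leaving one out left a group with 1 library, that library was taken to vary like the other groups. With 2 libraries a group, whether 1 library is unusual could not be tested. CPM per FPKM differed between libraries for some members (3.40 to 58.6 for Col20a1, 4.86 to 26.2 for Col4a1). A count of 0 allows up to 3 counts.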
